A study of Mus musculus with 5 samples.

Results

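Skeletal muscle lineage cells were found in single-cell RNA-seq of adult mouse skin by their own transcripts: 468 of 26845 cells met the rule, 208 as progenitor cells and 260 as myofibre-like cells. A cell was kept when it had at least 200 detected genes and no more than 10% of its unique molecular identifiers (UMIs, each counting 1 captured transcript) from mitochondrial genes. A kept cell joined the lineage when it held a UMI of at least 2 of the 6 genes Pax7, Myf5, Myod1, Myog, Cdh15 and Chrna1, or when Acta1, Ckm, Mylpf and Tnnt3 together reached 100 UMIs per 10,000, and cells with Krt5 plus Krt14 at 50 or more per 10,000 were dropped. All 5 genes that name the lineage here, Myod1, Myog, Acta1, Mylpf and Tnnt3, belong to the rule, so the label is checked below on genes outside it, such as Des, Tnnc2, Myl1 and Pvalb. Progenitor cells met the first condition only. Myofibre-like cells met the second, and 16 of the 260 met both. The values that chose the cells are therefore given below as descriptions, without tests.

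The study profiled 3 wounded and 2 un-wounded libraries of unfractionated skin cells from C57BL/6 mice, sorted for live cells. Wounded mice received a 6-mm punch wound at 7 weeks of age, and after 4 days their skin was collected by a wider punch of 10 mm, so that the sample held the wound and the skin around it. Un-wounded skin came from mice of the same strain whose age the labels do not give. No transgene or drug is named for either group. Whether the 5 libraries came from different animals is not stated, so every p-value measures only the spread between these libraries, which may be technical.

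Skeletal muscle is built by satellite cells, stem cells that lie under the basal lamina of the fibre and carry the transcription factor Pax7. After injury they express Myf5 and Myod1 as dividing myoblasts, switch on Myog as they leave the cell cycle, fuse, and then make the sarcomere proteins of the contractile fibre. Mouse skin has its own sheet of striated muscle, the panniculus carnosus, beneath the dermis, and a full-thickness punch can cut through it. Intact myofibres are long multinucleate cells, so a fibre-type transcriptome in a droplet may come from a whole small fibre, a fragment or a nucleus with attached cytoplasm, which the data do not separate.

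Total depth was 59621412, 33537809 and 41654423 UMIs in the wounded libraries and 33642571 and 41041406 UMIs in the un-wounded libraries, and the median kept cell held 6764, 6158 and 8004 UMIs in wounded and 6096 and 6878 UMIs in un-wounded skin. Any pair of libraries shared 26 to 63 cell barcodes, and no barcode was a member in both libraries of a pair. Muscle transcripts in cells that should lack them give the background of free RNA. Among cells of the wounded libraries with Krt5 plus Krt14 at 50 or more per 10,000, which should make no skeletal muscle actin, 21.04, 14.8 and 29.0% held an Acta1 UMI, against 4.12 and 1.79% in the un-wounded libraries. Their median depths were 6670.5, 6620 and 11218 UMIs in the wounded and 6266 and 7359 UMIs in the un-wounded libraries. Myog gave a UMI in 21 of 3004 such wounded cells (0.699%). Cells that met the muscle rule but were dropped for their keratin were not taken out of this background.

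The regulators and sarcomere genes of the rule meet at muscle promoters, where MyoD-family factors bind E-boxes (CANNTG, with CAGCTG a common form in muscle genes) and serum response factor binds CArG boxes. Promoters of 4 genes the classes rest on are shown for that reason, from 250 bases before to 50 bases after the annotated start (RefSeq, GRCm38.p6), with each E-box and CArG box in capitals. They are Myog (chr1:134289754-134290053, plus strand) and Chrna1 (chr2:73580289-73580588, minus strand) of the progenitor criterion, and Mylpf (chr7:127211358-127211657, plus strand) and Acta1 (chr8:123894726-123895025, minus strand) of the sarcomere criterion. The RefSeq start of Mylpf lies 2718 bases inside the GENCODE gene span printed further on, and those of the other 3 lie within 24 bases of the GENCODE start.
Myog: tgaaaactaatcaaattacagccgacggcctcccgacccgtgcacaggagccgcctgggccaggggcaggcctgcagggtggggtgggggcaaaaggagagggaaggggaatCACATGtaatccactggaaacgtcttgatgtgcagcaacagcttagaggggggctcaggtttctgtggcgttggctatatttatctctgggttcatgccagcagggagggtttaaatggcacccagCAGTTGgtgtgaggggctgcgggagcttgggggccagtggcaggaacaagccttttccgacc
Chrna1: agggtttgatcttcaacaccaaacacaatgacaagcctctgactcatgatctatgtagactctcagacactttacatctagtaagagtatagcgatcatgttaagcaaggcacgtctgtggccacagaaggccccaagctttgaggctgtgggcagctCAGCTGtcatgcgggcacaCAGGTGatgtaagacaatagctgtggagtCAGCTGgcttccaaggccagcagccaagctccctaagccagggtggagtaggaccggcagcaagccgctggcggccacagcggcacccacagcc
Mylpf: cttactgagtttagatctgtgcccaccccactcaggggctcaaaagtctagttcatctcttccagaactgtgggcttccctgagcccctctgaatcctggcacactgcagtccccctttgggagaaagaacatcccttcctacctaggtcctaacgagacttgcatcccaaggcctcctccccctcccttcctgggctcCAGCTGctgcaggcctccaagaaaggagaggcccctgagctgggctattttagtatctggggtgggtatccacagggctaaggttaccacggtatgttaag
Acta1: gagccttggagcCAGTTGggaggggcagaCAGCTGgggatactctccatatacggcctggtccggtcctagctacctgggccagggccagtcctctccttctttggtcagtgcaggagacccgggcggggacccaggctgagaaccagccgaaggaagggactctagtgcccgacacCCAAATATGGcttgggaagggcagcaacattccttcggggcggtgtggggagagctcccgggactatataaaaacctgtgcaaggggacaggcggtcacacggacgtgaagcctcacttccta
The Myog window held 2 E-boxes and the Chrna1 window 3, of which 2 read CAGCTG. The Mylpf window held a single CAGCTG E-box, and the Acta1 window 2 E-boxes and the only CArG box of the 4. Among 32851 promoters of 300 bases, read on both strands, 72.3% held CANNTG, 16.3% CAGCTG (a subset of CANNTG) and 1.63% a CArG box, so an E-box alone does not set these 4 apart. These matches are letters in a window, not measured binding.

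Muscle lineage cells made up 2.98% ± 1.64 of kept cells in wounded libraries (SD, n = 3) and 0.103% ± 0.0118 in un-wounded libraries (SD, n = 2). In counts, wounded libraries held 180, 78 and 199 members among 7516, 4567 and 4124 kept cells, and un-wounded libraries 5 and 6 among 5264 and 5374. Every wounded library lay above both un-wounded ones. The two-sided exact permutation test over all 10 assignments of the libraries gave p = 0.2, with 0.1 the smallest value this design allows. Shares of sorted live cells depend on how each cell type survives dissociation and sorting, which was not measured.

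**Figure D1:**
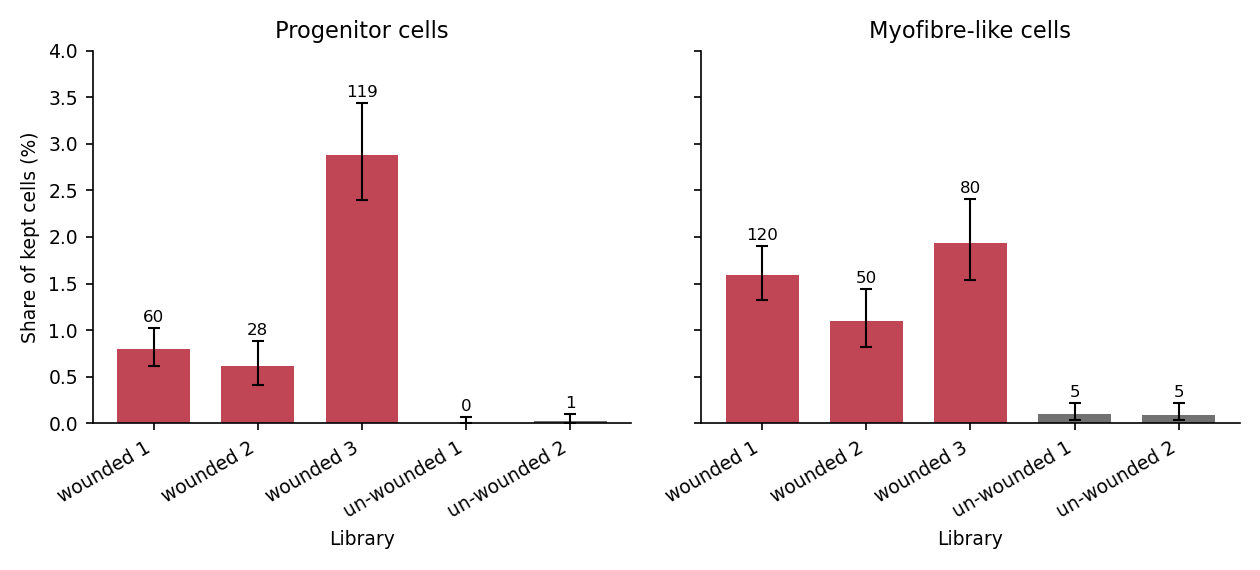
Share of kept cells (percent, bars) that were progenitor or myofibre-like in each library, wounded libraries left of un-wounded, with exact 95% binomial intervals and the number of cells above each bar. Wounded libraries held 60, 28 and 119 progenitor cells and 120, 50 and 80 myofibre-like cells, and un-wounded libraries 0 and 1 progenitor cells and 5 myofibre-like cells each.

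Progenitor cells were 0.798% (95% interval 0.610 to 1.03) of kept cells in wounded library 1, 0.613% (95% interval 0.408 to 0.885) in wounded library 2 and 2.89% (95% interval 2.40 to 3.44) in wounded library 3. Un-wounded library 1 held 0 of 5264, which allows a share of up to 0.0570% (3 counts of the total; the exact 95% interval ends at 0.0701%), and un-wounded library 2 held 1 of 5374. The group means were 1.43% ± 1.26 in wounded (SD, n = 3) and 0.00930% ± 0.0132 in un-wounded skin (SD, n = 2), exact permutation p = 0.3. Wounded library 3 weighed heavily in that mean: the difference of means was 1.42 percentage points with it and 0.696 without it. With every cell thinned to 2000 UMIs, 39, 14 and 65 wounded and 0 and 1 un-wounded cells met the progenitor rule, and the difference was 0.791 percentage points. Intervals and limits cover counting error only.

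Myofibre-like cells were spread more evenly: 1.60% (95% interval 1.33 to 1.91) in wounded library 1, 1.09% (95% interval 0.814 to 1.44) in wounded library 2 and 1.94% (95% interval 1.54 to 2.41) in wounded library 3. The un-wounded libraries held 5 each, 0.0950% and 0.0930% of kept cells. Means were 1.54% ± 0.425 in wounded (SD, n = 3) and 0.0940% ± 0.00137 in un-wounded skin (SD, n = 2), exact permutation p = 0.1, the smallest the design allows. The ratio of progenitor to myofibre-like cells was not fixed across wounded libraries, since library 3 had more progenitor than myofibre-like cells and libraries 1 and 2 had fewer.

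Few cells lay near the sarcomere threshold. Between 50 and 100 UMIs per 10,000 stood 3, 2 and 3 cells in the wounded libraries and none in either un-wounded library, while 108, 44 and 69 wounded and 5 and 3 un-wounded cells reached 500 or more. The highest cells below the threshold stood at 69.1, 75.7 and 93.0 per 10,000 in the wounded libraries, and the lowest at or above it at 101, 118 and 119. The keratin condition dropped 11, 0 and 2 cells in wounded and 1 and 0 in un-wounded libraries. These cells stayed among the kept cells and count as cells outside the lineage. The highest sarcomere level outside the lineage was therefore 984 and 459 per 10,000 in wounded libraries 1 and 3. Scrublet, a doublet caller, placed 32, 9 and 21 wounded and 0 and 0 un-wounded members among its highest scores, and these cells were retained. Those scores took in 459, 177 and 138 of all kept wounded cells and 231 and 243 un-wounded ones. In each wounded library that was a smaller share of kept cells than of members.

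**Figure D2:**
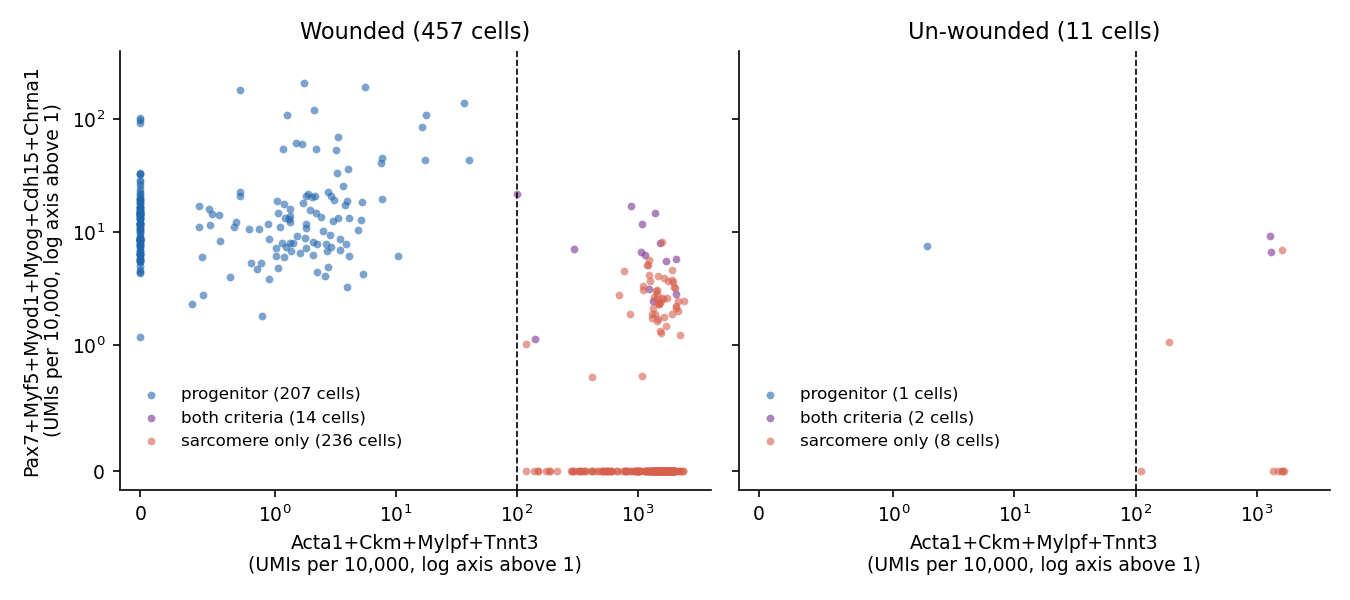
Each member cell by its summed UMIs per 10,000 of Acta1, Ckm, Mylpf and Tnnt3 (x axis) and of the 6 regulator genes (y axis), both axes logarithmic above 1, with wounded cells in the left panel and un-wounded cells in the right. The dashed line marks 100 UMIs per 10,000; most cells lie far from it on either side, 207 wounded progenitor cells to the left and 250 wounded myofibre-like cells to the right.

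Most progenitor cells held more regulator genes than the 2 the rule asks for. Of 207 wounded progenitor cells, 170 held UMIs of 3 or more of the 6 genes and 37 of exactly 2, while 144, 58 and 118 cells of the wounded libraries held exactly 1 and stayed outside the lineage. Des, the muscle intermediate filament gene, which the rule did not use, was detected in 163 of the 170 and in 33 of the 37, whereas Pdgfra of fibroblasts was found in 4 of 170 and 2 of 37, and Ptprc, the pan-leukocyte gene, in 7 of 170 and 1 of 37. Cells that only just met the rule were thus largely Des-positive as well. Their pooled fibroblast transcripts were higher, however. Col1a1 stood at 1410 CPM in the 37 against 260 CPM in the 170, and Pdgfra at 38.8 against 1.88 CPM. Col1a1 UMIs were found in 19 of the 37 (51.4%) and 116 of the 170 (68.2%), so its detection went the other way. Progenitor cells had a median of 10828, 6548 and 8363 UMIs and 2956, 2112 and 2222 detected genes in the 3 wounded libraries, against 6791, 6183 and 8049 UMIs in the cells outside the lineage.

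Pax7 (chr4:139737062-139833528, minus strand), the satellite cell transcription factor, was detected in 28, 14 and 81 of the 60, 28 and 119 wounded progenitor cells, at 64.0, 73.6 and 97.5 CPM (UMIs per 1000000 of the summed UMIs of the class in a library), with a UMI in 8 of 15750 wounded cells outside the lineage. Myf5 (chr10:107482908-107486134, minus strand), which marks satellite cells and early myoblasts, was found in 36, 19 and 82 cells at 211, 127 and 153 CPM. Myod1 (chr7:46376474-46379099, plus strand), the myoblast determination factor, was found in 32, 5 and 44 cells at 308, 90.0 and 125 CPM. The share of Pax7-positive cells was highest in wounded library 3, and that of Myod1-positive cells was lowest in wounded library 2.

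Myog (chr1:134289989-134292548, plus strand), the factor of terminal differentiation, was found in fewer cells, 16, 3 and 20 of the 60, 28 and 119, but averaged 2146, 638 and 519 CPM over all of them, because the cells that had it had much of it. Cdh15 (chr8:122847966-122867397, plus strand), the M-cadherin gene, was the most widely detected at 57, 25 and 114 cells and 423, 319 and 388 CPM, and it overlaps a predicted gene on the same strand, which the counting could split. Chrna1 (chr2:73563215-73580338, minus strand), the acetylcholine receptor alpha subunit made by myoblasts and fibres, was found in 48, 16 and 73 cells at 496, 221 and 287 CPM. Lineage members, 457 of 16207 kept wounded cells, held 94.9% of all wounded Pax7 UMIs, 98.2% of Myod1, 95.8% of Myog and 93.3% of Cdh15.

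Some pairs of regulators were seen far more often than others. Pax7 and Myf5 were found together in 93 of the 207 wounded progenitor cells and Myod1 with Myog in 29, but Pax7 with Myog in 11 and Myf5 with Myog in 5. The most frequent pair was Cdh15 with Chrna1, in 134 cells. No test was made of these pairs, since the rule counted them.

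Stem cell genes outside the rule were in part high in progenitor cells too. Of 17 such genes of this list with at least 10 CPM in either class, 8 were at least 4-fold higher in progenitor cells than in all other kept cells of the wounded libraries, where 1.37% of 7966 genes were. These ratios used means over the 3 wounded libraries and a pseudocount of 10 CPM. With a pseudocount of 50 CPM, tried against other cells after the values were seen, 2 of the 17 and 14 of 7956 genes outside the rule passed, so the counts against other cells depend on it. Dag1, the dystroglycan that ties the cell to its basal lamina, stood at 414, 765 and 502 CPM in progenitor cells, against 44.8, 55.4 and 46.4 CPM in the cells outside the lineage. Vcam1, a surface protein used to sort satellite cells, stood at 349.7, 254 and 216 CPM against 53.1, 72.7 and 62.3 CPM. Chodl, a membrane lectin gene known in satellite cells, stood at 118, 213 and 160.2 CPM against 5.16, 2.12 and 4.70 CPM. Des stood at 1397, 532 and 1197 CPM against 117, 10.1 and 48.7 CPM, and all 3 progenitor values of each gene lay above all 3 values outside the lineage.

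Imprinted growth genes were divided. Of 10 detected, 5 were at least 4-fold higher in progenitor cells than in other kept cells, and 2 with the pseudocount of 50 CPM. Cdkn1c, an imprinted cyclin-dependent kinase inhibitor, reached 1842, 1059.6 and 853 CPM in progenitor cells, against 40.1, 33.8 and 39.8 CPM in cells outside the lineage. Mest, an imprinted gene active in growing embryonic tissues, reached 1283, 421 and 759 CPM against 29.4, 11.7 and 22.7 CPM, and members held 41.5% of its wounded UMIs. Meg3, a long noncoding RNA of the Dlk1 imprinted cluster, went the other way, at 231, 303 and 155 CPM in progenitor cells against 692, 498 and 551 CPM outside. Of 8 detected Notch pathway genes only 1 passed 4-fold, Heyl, a Notch target of satellite cells, at 113, 131 and 124 CPM in progenitor cells against 7.95, 1.91 and 3.82 CPM outside. The receptor gene Notch3 stood at 65.5, 147 and 79.1 CPM against 45.9, 4.98 and 15.2 CPM and Notch1 at 37.2, 36.8 and 33.4 CPM against 25.3, 16.3 and 16.3 CPM, while the target Hes1 was lower in all 3 libraries, at 112, 180 and 33.4 CPM against 225, 187 and 87.9 CPM.

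Growth factor genes were mixed. Of 15 detected genes of the IGF and growth factor receptor list, 2 passed 4-fold over other cells. Igfbp5, a binding protein of insulin-like growth factors, stood at 378, 217 and 317 CPM in progenitor cells against 209, 529 and 203 CPM outside, and Igfbp7 at 680.1, 200.5 and 137 CPM against 2416, 1741 and 769 CPM. Igfbp4 stood at 192, 69.5 and 282 CPM against 149, 210.3 and 235 CPM and Igfbp3 at 323, 106 and 80.4 CPM against 253, 60.3 and 35.9 CPM. Of 18 basal lamina and adhesion genes outside the rule, 3 passed 4-fold, among them the neural cell adhesion molecule Ncam1 at 167, 217 and 196 CPM against 17.1, 27.3 and 22.0 CPM, while the integrin beta chain gene Itgb1 was at 149, 159.5 and 155 CPM against 171, 142 and 151 CPM. The interferon response list passed in none of its 11 detected genes, and Ifitm3 stood at 1603, 1685 and 1560 CPM in progenitor cells against 2138, 2304 and 2545 CPM outside. Isg15, Bst2 and Ifi27l2a ranged over 43.6 to 290.5 CPM in progenitor cells and 142 to 803 CPM outside. Immediate early and heat shock genes, which rise during tissue dissociation, passed in none of 12, with Fos at 1481, 2144 and 1840.1 CPM against 3099.5, 2361 and 1560 CPM, Jun at 1168, 1845 and 1046 CPM against 2702, 1658 and 1103 CPM, Junb at 1326, 1223 and 1292 CPM against 2788, 1693 and 1520.4 CPM and Hspa1a at 1092, 2528 and 1473 CPM against 1004, 1171 and 988 CPM.

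Ranked by their ratio over all other kept cells, the genes that led the progenitor class were Myog (log2 ratio 6.69), Cdh15 (5.20), Actc1 (5.17), Chrna1 (4.92), Mest (4.73), Cdkn1c (4.72), Tnnt2 (4.35), Myod1 (4.20), Myf5 (4.08), Des (3.94), Actn3 (3.90) and Gm7325 (3.88). Of 19 differentiation and fusion genes detected outside the rule, 6 passed 4-fold over other cells, whereas the cell cycle inhibitor Cdkn1a stood at 296, 73.6 and 177 CPM in progenitor cells against 465, 425 and 437 CPM outside and the brain-type creatine kinase Ckb at 225, 155 and 162 CPM against 81.2, 123 and 89.6 CPM. Myog, Cdh15, Chrna1, Myod1 and Myf5 were chosen by the rule, and the other 7 were not. Actc1 and Tnnt2 are the cardiac actin and cardiac troponin T genes, which developing skeletal muscle also uses. The defining cardiac genes were not there: 6 of 8 cardiac markers, Myh6 and Nppa included, had 0 UMIs in wounded progenitor cells, and the list summed to 1.49, 0 and 1.36 CPM in wounded libraries 1, 2 and 3.

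Within progenitor cells, Myog split the class. Among the 207 wounded cells, 31 held at least 5 Myog UMIs (15, 3 and 13 in libraries 1, 2 and 3), 8 held 1 to 4 and 168 held none, a division chosen after the values were seen. The Myog-high cells had a median of 46 Myog UMIs and up to 320. Their median depth was 14464 UMIs in Myog-high and 7693 UMIs in Myog-zero cells. As a description over these cells, with cells not counted as replicates, the groups are set side by side in CPM per wounded library. The share of all genes with the same direction in all 3 libraries is not given here. The list counts below therefore have no background to be read against.

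Most listed differentiation and fusion genes were higher in the Myog-high cells, with no share over all genes to compare. Of 17 differentiation and fusion genes outside the rule with at least 10 CPM in either group, 12 were higher in the Myog-high cells of all 3 libraries and 1, Cdon, in the Myog-zero cells. Tmem8c, now called Mymk, encodes myomaker, a membrane protein that myoblasts need to fuse, and stood at 429, 543 and 256 CPM in Myog-high and 4.37, 0 and 2.80 CPM in Myog-zero cells. Gm7325, now called Mymx, encodes its fusion partner myomixer, and stood at 591, 782 and 413 CPM in Myog-high and 2.19, 0 and 1.87 CPM in Myog-zero cells. The junctional adhesion molecule gene Jam3 stood at 410.1, 782 and 309.7 CPM in Myog-high and 103, 60.5 and 58.9 CPM in Myog-zero cells. In all 3 libraries each of these genes was higher in the Myog-high cells.

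Embryonic sarcomere genes were highest in the same cells, with 6 of 7 higher in the Myog-high cells of every library. Actc1 stood at 2041, 1933 and 1021 CPM in Myog-high and 0, 10.1 and 1.87 CPM in Myog-zero cells, and Tnnt2 at 749, 869 and 505 CPM in Myog-high and 35.0, 121 and 15.9 CPM in Myog-zero cells. Cdkn1c stood at 4788, 5255 and 3311 CPM in Myog-high and 512, 85.7 and 348 CPM in Myog-zero cells. Acta1 was at 386, 890.3 and 184 CPM in Myog-high and 28.4, 30.2 and 42.1 CPM in Myog-zero cells, both far under the myofibre-like level given below. Acta2, smooth muscle actin, which differentiating myoblasts can also express, was at 4206, 4126 and 2914 CPM in Myog-high and 1203, 812 and 719 CPM in Myog-zero cells. Each of these 5 genes was higher in the Myog-high cells of every wounded library.

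Most listed stem cell genes were lower in the Myog-high cells, again with no share over all genes to compare. Of 18 genes of this list outside the rule with at least 10 CPM in either group, 12 were lower in the Myog-high than in the Myog-zero cells of every wounded library, and 2 were higher, Megf10 and Des. Chodl was at 4.77, 0 and 7.65 CPM in Myog-high and 168, 262 and 217 CPM in Myog-zero cells, and Vcam1 at 114, 21.7 and 80.3 CPM in Myog-high and 457, 307 and 265 CPM in Myog-zero cells. Megf10, a receptor gene of satellite cells, was at 52.5, 174 and 65.0 CPM in Myog-high and 43.7, 30.2 and 44.9 CPM in Myog-zero cells, and Des at 1850.2, 586 and 1556 CPM in Myog-high and 1194, 519 and 1134 CPM in Myog-zero cells. Of 8 Notch pathway genes, 4 were lower in the Myog-high cells of every library and 2, Notch1 and Dll1, were higher. Heyl stood at 62.0, 0 and 26.8 CPM in Myog-high and 138, 161 and 159.8 CPM in Myog-zero cells and Notch3 at 14.3, 0 and 3.82 CPM in Myog-high and 89.7, 181 and 101 CPM in Myog-zero cells. In wounded library 2 every Myog-high value, zeros included, rests on 3 cells.

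Regulators of the rule cannot be compared freely between these groups, since a cell without Myog had to hold UMIs of 2 of the other 5 genes and a cell with Myog of only 1. Pax7 was at 33.4, 0 and 11.5 CPM in Myog-high and 76.6, 90.7 and 126 CPM in Myog-zero cells, and Myf5 at 52.5, 0 and 0 CPM in Myog-high and 287, 156 and 207 CPM in Myog-zero cells. Cdh15 was closer between the groups, at 358, 109 and 325 CPM in Myog-high and 451, 368 and 419.6 CPM in Myog-zero cells.

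**Figure D3:**
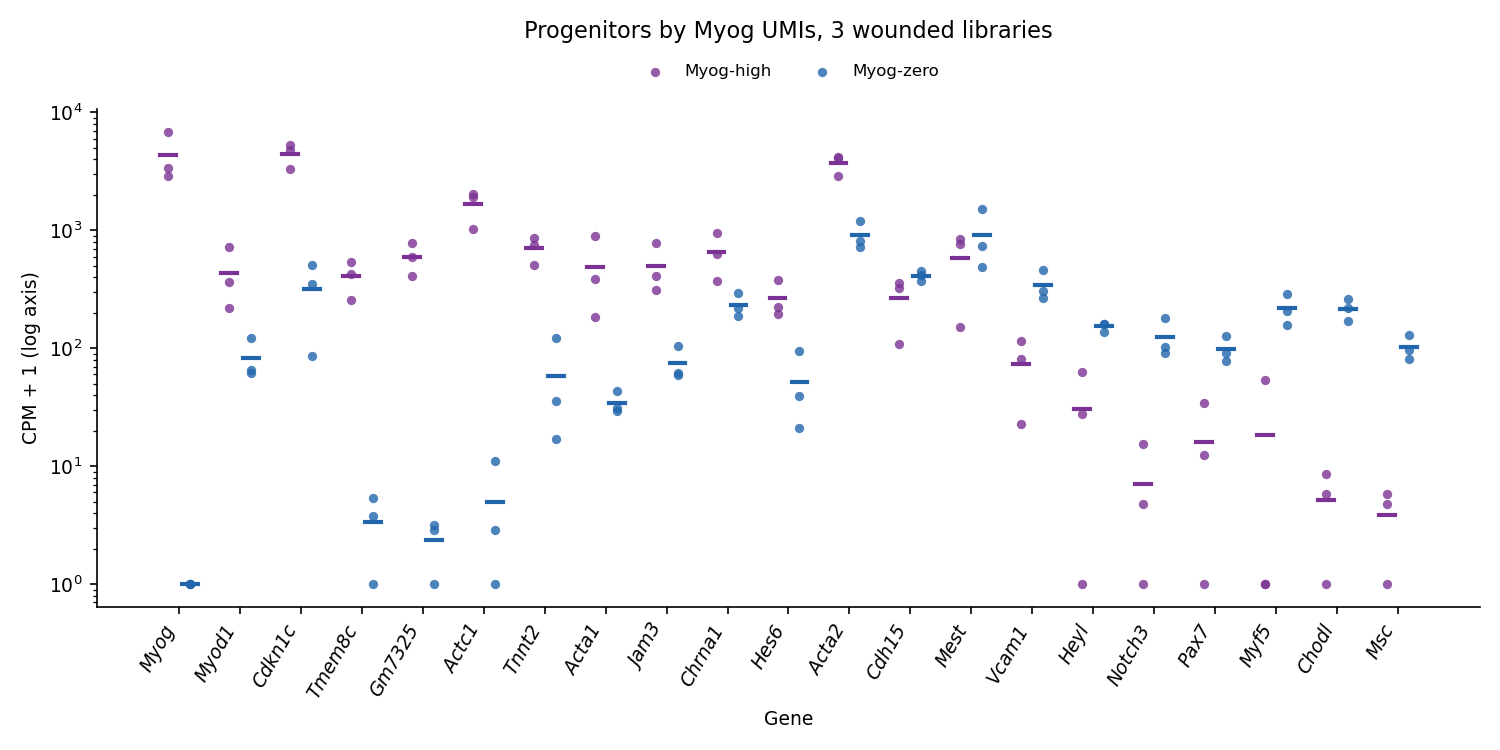
Level of 21 genes (CPM + 1, logarithmic axis) in Myog-high progenitor cells and, to their right, Myog-zero progenitor cells of the 3 wounded libraries, 1 point per library and a bar at the mean. Myog-high cells hold the fusion genes Tmem8c and Gm7325 and the embryonic actin gene Actc1, and Myog-zero cells hold more Pax7, Myf5, Chodl and Heyl.

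At an equal depth of 2000 UMIs per cell, a minority of progenitor cells held proliferation genes, whereas at full depth 107 of 207 did. With each cell thinned to 2000 UMIs, 17, 4 and 23 of 60, 28 and 119 wounded progenitor cells held UMIs of at least 2 of 18 proliferation genes, a mean of 20.6% ± 7.12 (SD, n = 3). The same measure found 5, 1 and 0 of 120, 50 and 80 myofibre-like cells and 14.3, 11.3 and 13.7% of the cells outside the lineage. Without thinning the progenitor shares were 63.3, 32.1 and 50.4%, with 11.7, 8 and 5% in myofibre-like cells and 41.1, 33.6 and 43.4% outside. The exact 95% intervals of the thinned progenitor shares ran from 17.5, 4.03 and 12.7% to 41.4, 32.7 and 27.6%, and in wounded library 2 that interval includes the share outside the lineage. No wounded cell was too shallow for the thinning. Counting 3 genes in place of 2 lowered the progenitor mean to 11.7%.

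Rrm2, a subunit of the enzyme that makes deoxynucleotides, stood at 189, 24.5 and 112 CPM in progenitor cells, against 13.1, 7.37 and 12.8 CPM outside the lineage. Cdk1, the kinase of mitotic entry, stood at 110.1, 4.09 and 132 CPM against 30.4, 9.59 and 18.03 CPM, so wounded library 2 was lowest for both genes and lay below other cells for Cdk1. Hmgb2 stood at 391, 77.7 and 277 CPM against 266, 227 and 218 CPM and Pcna, the replication clamp, at 138, 24.5 and 89.3 CPM against 40.0, 38.6 and 33.5 CPM. Thinned shares were 22.6% (7 of 31) in Myog-high and 20.2% (34 of 168) in Myog-zero cells, against 74.2% and 45.8% without thinning, where the Myog-high cells were the deeper. No test was made between cells of the same libraries.

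Myofibre-like cells were dominated by contractile transcripts. Acta1, Ckm, Mylpf and Tnnt3 together took 0.0302, 0.0307 and 0.0235% of all UMIs in the progenitor cells of the wounded libraries and 11.5, 10.1 and 12.4% in the myofibre-like cells. Myofibre-like cells were shallower, with a median of 3676, 3398 and 5102 UMIs and 1079.5, 976 and 1219.5 detected genes. The median mitochondrial share was 3.04, 2.82 and 2.29% in progenitor cells, 0.104, 0.174 and 0.0697% in myofibre-like cells and 2.41, 2.59 and 1.86% in cells outside the lineage. The low value did not hold for every myofibre-like cell: 79, 38 and 62 lay under 0.5% and 15, 5 and 5 at 2% or more. What part cell integrity had in the low mitochondrial share was not tested.

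Fast-twitch genes made up the class. Acta1 (chr8:123891769-123894751, minus strand), skeletal actin, stood at 60910.5, 51694 and 74440.3 CPM in wounded myofibre-like cells. Mylpf (chr7:127208890-127214298, plus strand), the fast regulatory light chain, stood at 28027, 26769 and 24509 CPM, and Tnnt3 (chr7:142498836-142516009, plus strand), fast troponin T, at 13411, 12202 and 13959.5 CPM. Ckm (chr7:19404776-19422841, plus strand), muscle creatine kinase, stood at 12482, 10442 and 11238 CPM. Acta1, Tnnt3 and Ckm each overlap a gene on the other strand, and whether the counting used strand is not given in the sources used here. Acta1 was at 139.9, 192 and 69.5 CPM in progenitor cells and 81.7, 29.7 and 59.0 CPM in cells outside the lineage. It was detected in 25, 25 and 35.3% of progenitor cells and in 22.4, 16.4 and 27.3% of cells outside the lineage, and in 21.04, 14.8 and 29.0% of the keratin-high cells, so its presence in progenitor cells as a class lay near the background.

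Genes the rule did not use followed the same order. Tnnc2, fast troponin C, was at 23775, 18947 and 20940.2 CPM in myofibre-like cells against 32.9, 18.6 and 16.2 CPM outside the lineage, and Myl1, a fast essential light chain, at 21784, 17427 and 18978 CPM against 26.6, 9.34 and 13.2 CPM. Pvalb, the calcium buffer of fast fibres, was at 8068, 10197 and 5579.7 CPM against 10.6, 11.1 and 3.99 CPM, and Atp2a1, the fast sarcoplasmic calcium pump, at 1618, 2481 and 2390.4 CPM against 3.39, 2.15 and 1.72 CPM. Trdn, triadin of the calcium release complex, was at 408, 536 and 442 CPM against 0.722, 0.860 and 0.329 CPM. Without the 4 genes of the rule, all 18 detected fast-twitch genes were at least 4-fold higher in myofibre-like cells than in other kept cells, as were 12 of 14 calcium handling genes and 15 of 16 energy metabolism genes, where 3.62% of 7966 genes were. With a pseudocount of 50 CPM the counts were 17, 6 and 12, and 120 of 7956 genes outside the rule.

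The genes that led the class over other kept cells were Acta1 (log2 ratio 9.87), Mylpf (9.60), Myl1 (9.52), Tnnc2 (9.35), Tnnt3 (9.12), Ckm (9.02), Pvalb (8.74), Tnni2 (8.72), Pgam2 (7.85), Mb (7.64), Sln (7.53) and Car3 (7.50). Energy genes in this ranking were Ckm, the muscle phosphoglycerate mutase gene Pgam2 and the myoglobin gene Mb. Aldoa, the muscle aldolase gene that other tissues also express, stood at 13917, 13777 and 13941 CPM in myofibre-like cells against 656, 387 and 543 CPM outside, and Slc25a4, the mitochondrial nucleotide carrier, at 4989, 3899 and 4456 CPM against 481, 324 and 440.4 CPM. Gapdh, the glycolytic enzyme, stood at 8016, 9836 and 11474 CPM against 741, 952 and 1497 CPM. Lineage members held 91.3% of wounded Acta1 UMIs, 91.2% of Mylpf and 89.8% of Ckm.

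Most slow-twitch UMIs of wounded libraries 1 and 3 sat in a handful of cells. UMIs of Tnnt1, Myl2, Tnnc1 and Tnni1 were found in 30 of 120, 5 of 50 and 25 of 80 wounded myofibre-like cells and in 0 of 5 and 0 of 5 un-wounded cells. The 5 highest cells held 90.9% and 89.9% of the 716 and 1072 slow UMIs of wounded libraries 1 and 3. Wounded library 2 held 6 slow UMIs in its 5 positive cells, so that share could only be 100% there. Slow transcripts were at least 50% of slow plus fast UMIs in 4, 0 and 3 wounded cells. Tnnt1, slow troponin T, stood at 401, 18.5 and 829 CPM in the myofibre-like cells of the 3 wounded libraries, with library 2 lowest. Of the slow-twitch list, the Z-disc gene Myoz2 stood at 646, 189 and 981 CPM and the tropomyosin gene Tpm3, which many cells express, at 345, 78.5 and 432 CPM, and 7 of 8 detected genes were at least 4-fold higher than in other kept cells.

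Csrp3, Mustn1 and H19 were further transcripts of the myofibre-like cells. Csrp3, the muscle LIM protein gene, stood at 2039, 559 and 3059.5 CPM in wounded cells, and Mustn1 (chr14:30879200-30881610, plus strand), a small nuclear protein of the musculoskeletal system, at 1604, 2287 and 3733 CPM. H19, an imprinted long noncoding RNA that embryonic and regenerating muscle expresses, stood at 624, 159.5 and 523 CPM in progenitor cells, 1899.8, 938 and 1859 CPM in myofibre-like cells and 107, 55.4 and 79.1 CPM in wounded cells outside the lineage. Members held 23.7% of all wounded H19 UMIs. Of the embryonic list, Myl4, an embryonic light chain, stood at 100.3, 32.3 and 655 CPM in myofibre-like cells, slow troponin I (Tnni1), also used in development, at 229, 9.24 and 409.6 CPM, Ankrd1, a stretch-responsive sarcomere protein gene, at 148, 27.7 and 152 CPM and Tnnt2 at 11.9, 4.62 and 182 CPM. Library 2 was lowest for all 4. Trim63, a ubiquitin ligase gene of muscle atrophy, stood at 127, 87.8 and 126 CPM, and the metallothionein genes Mt1 at 1195, 1109 and 1198 CPM and Mt2 at 909, 878 and 947 CPM. Gadd45a, a stress gene that also rises in denervated muscle, stood at 129, 97.0 and 126 CPM.

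The 6 regulators of the rule were lower in myofibre-like than in progenitor cells in all 3 libraries, and Myf6 was higher. Myog was at 2146, 638 and 519 CPM in progenitor and 40.8, 13.9 and 56.8 CPM in myofibre-like cells, and Pax7, at 64.0, 73.6 and 97.5 CPM in progenitor cells, had no UMI in any of the 250 wounded myofibre-like cells. Myf6, the myogenic factor that mature fibres express, stood at 2.98, 0 and 1.36 CPM in progenitor and 243, 97.0 and 154 CPM in myofibre-like cells, with a UMI in 4 of 207 wounded progenitor cells, 116 of 250 wounded myofibre-like cells and 16 of 15750 wounded cells outside the lineage. The receptor genes of the neuromuscular junction were lower in myofibre-like cells, with Chrna1 at 496, 221 and 287 CPM in progenitor and 32.3, 27.7 and 34.5 CPM in myofibre-like cells and the receptor-clustering gene Rapsn at 124, 102 and 131 CPM in progenitor and 45.9, 9.24 and 28.4 CPM in myofibre-like cells. The receptor subunit genes Chrnb1 and Chrnd ranged over 12.3 to 86.3 CPM in progenitor and 0 to 13.6 CPM in myofibre-like cells.

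The contrast of the classes covered many genes. Of 7966 genes with at least 10 CPM in either class, 263 were at least 4-fold higher in progenitor cells (3.3%) and 290 at least 4-fold lower (3.64%), with a median log2 ratio of 0.52. With a pseudocount of 50 CPM these counts were 41 and 112. No test was made, since the classes were chosen on these values. Of the genes outside the rule, 9 of 17 muscle stem cell genes, 9 of 18 proliferation genes and 6 of 10 imprinted growth genes were at least 4-fold higher in progenitor cells, and 3, 0 and 3 with the pseudocount of 50 CPM. In the other direction stood 16 of 18 fast-twitch, 14 of 16 energy metabolism, 7 of 14 calcium handling and 5 of 8 slow-twitch genes, and 14, 11, 4 and 4 with the pseudocount of 50 CPM. Of 19 differentiation and fusion genes, 5 were higher and 6 lower in progenitor cells by that measure.

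By the log2 ratio of progenitor over myofibre-like cells, the progenitor side was led by Cdkn1c (4.91), Dag1 (4.72), Mest (4.60), Myog (4.56), Spats2l (4.39), Pdlim4 (4.36), Cnn3 (4.31), Cd82 (4.26), C1qtnf3 (4.06), Tubb2b (3.81), Fscn1 (3.56) and Cdh15 (3.42). Several of these encode cytoskeletal or membrane proteins of motile cells: Pdlim4 and Cnn3 bind actin or its partners, Fscn1 bundles actin, Tubb2b is a beta-tubulin and Cd82 is a tetraspanin. Spats2l stood at 239.6, 290.5 and 254 CPM in progenitor and 6.80, 0 and 2.03 CPM in myofibre-like cells, and C1qtnf3, a secreted C1q-related protein gene, at 513, 421 and 368 CPM in progenitor and 25.5, 18.5 and 6.08 CPM in myofibre-like cells. The myofibre-like side was led by Tnnc2 (-9.91), Ckm (-9.35), Pvalb (-8.88), Acta1 (-8.76), Tnnt3 (-8.09), Mylpf (-7.89), Car3 (-7.87), Myl1 (-7.68), Pgam2 (-7.66), Mb (-7.60), Tcap (-7.55) and Tnni2 (-7.36). All 24 kept their direction with a pseudocount of 50 CPM and with the cells meeting both conditions left out.

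**Figure D4:**
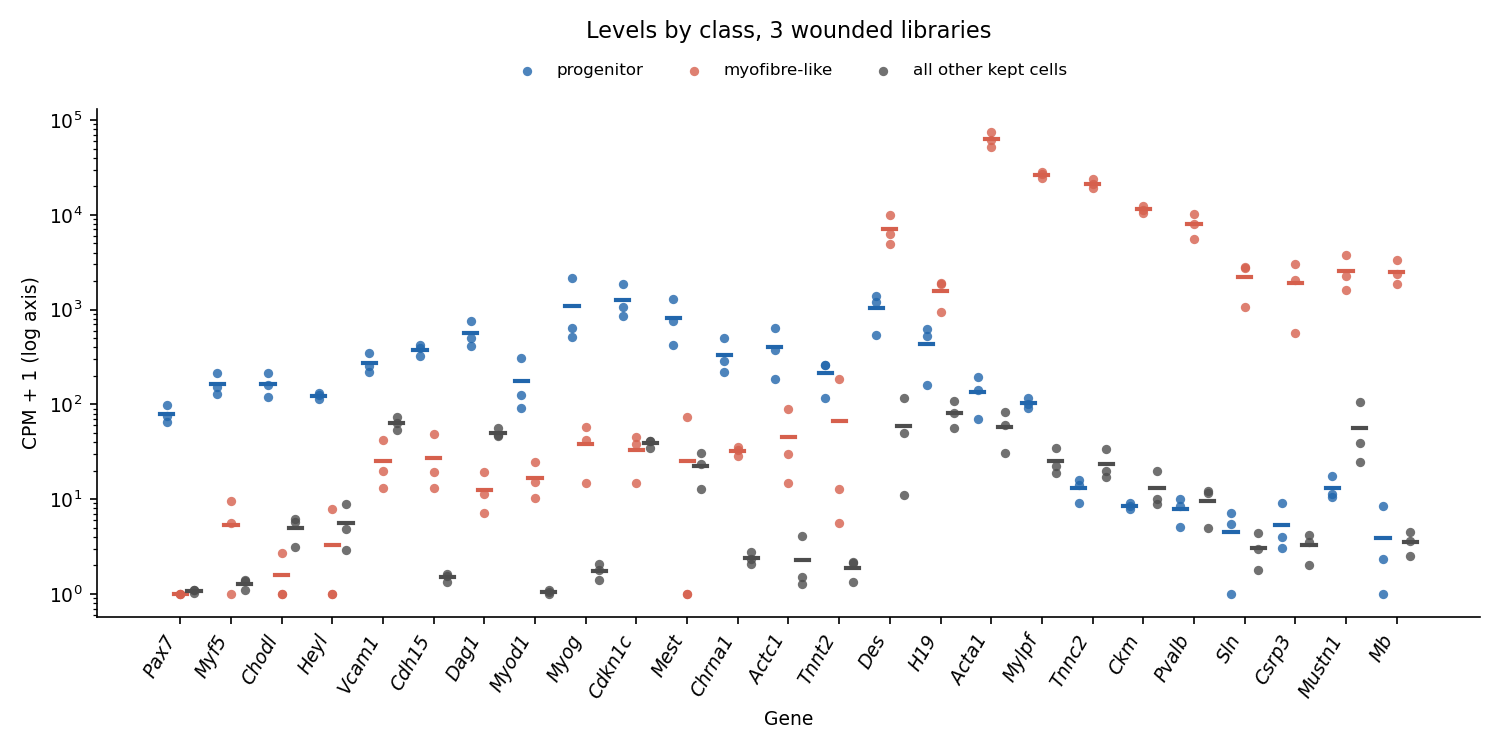
Level of 25 genes (CPM + 1, logarithmic axis) in progenitor cells, myofibre-like cells and all other kept cells of the 3 wounded libraries, 1 point per library and a bar at the mean. Progenitor cells stand highest for Pax7 to Tnnt2, myofibre-like cells from Des and H19 to Mb, and the sarcomere genes of progenitor cells lie far below those of myofibre-like cells.

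The 14 wounded cells that met both conditions stood at sarcomere levels with some regulator transcripts. Acta1 was at 63655, 22642 and 74158 CPM in these 8, 2 and 4 cells, and at 60595, 55054 and 74469.8 CPM in the 236 wounded cells with the sarcomere condition alone. Myog was at 313, 134 and 215 CPM in the first set and 9.47, 0 and 40.3 CPM in the second. Sln, sarcolipin, the small inhibitor of the sarcoplasmic calcium pump, stood at 11022, 4413 and 10115 CPM in cells meeting both conditions and 1841, 686 and 2002 CPM in cells with the sarcomere condition alone, so each of the 3 libraries had the higher level in the first set. Whether any of the 14 were 2 cells in 1 droplet was not tested beyond the Scrublet scores, which placed 1 of them among the highest.

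Markers of other cell types were summed in both classes and set against the wounded cells outside the lineage. Fibroblast markers (8 genes) summed to 2572, 2025 and 2565 CPM in wounded progenitor cells, 4787, 4190.4 and 2380.3 CPM in wounded myofibre-like cells and 25444, 31924 and 20179.6 CPM in wounded cells outside the lineage. Their 4 most abundant genes, Dcn, Col3a1, Col1a2 and Col1a1, ranged over 176 to 824 CPM in progenitor and 335 to 2088 CPM in myofibre-like cells. Macrophage markers (7 genes) summed to 101, 81.8 and 634 CPM in progenitor and 875, 259 and 949 CPM in myofibre-like cells, against 601, 1192 and 2689 CPM outside, so the myofibre-like sum of library 1 lay above the cells outside. Vascular endothelial markers (6 genes) summed to 7.44, 8.18 and 6.13 CPM in progenitor and 20.4, 9.24 and 42.6 CPM in myofibre-like cells, against 68.0, 32.2 and 82.4 CPM outside, and Schwann cell markers (6 genes) reached 16.4, 16.4 and 27.3 CPM in progenitor and 178, 4.62 and 12.2 CPM in myofibre-like cells, against 24.2, 37.0 and 61.4 CPM outside, with library 1 of the myofibre-like cells above. Keratinocyte markers (8 genes) summed to 1487, 2434 and 143 CPM in progenitor and 2280.5, 263 and 162 CPM in myofibre-like cells, against 21702, 1576 and 5239 CPM outside, with the progenitor sum of library 2 above. T cell markers (4 genes in the table) summed to 135, 45.0 and 125 CPM in progenitor and 173, 55.4 and 103 CPM in myofibre-like cells against 527, 533 and 535 CPM outside, mostly Thy1, which fibroblasts also express. The cardiac markers summed to 1.70, 0 and 0 CPM in myofibre-like cells.

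Neutrophil and pericyte markers also exceeded the cells outside the lineage in some libraries. The 5 neutrophil genes summed to 237, 348 and 162 CPM in progenitor cells and 1859, 2698 and 337 CPM in myofibre-like cells, against 302, 890.4 and 879.6 CPM in wounded cells outside the lineage, so myofibre-like cells of wounded libraries 1 and 2 stood above the average of the other cells. S100a8, a calcium-binding protein gene of neutrophils, was at 1212, 1409 and 237 CPM in myofibre-like cells, while the neutrophil receptor gene Csf3r was at 11.9, 4.62 and 2.03 CPM. Pericyte and smooth muscle markers (9 genes) summed to 2389, 1575 and 1312 CPM in progenitor and 1369.7, 13.9 and 79.1 CPM in myofibre-like cells, against 2430, 237 and 802 CPM outside, so progenitor cells of libraries 2 and 3 stood above. In progenitor cells this sum was mostly Acta2 at 2134, 1436 and 1205 CPM, with Rgs5 of pericytes at 80.4, 0 and 3.41 CPM. The part of captured free RNA in these sums was not tested.

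The un-wounded members were 11 cells. The single progenitor cell, in un-wounded library 2, held 1 Myf5, 1 Myod1 and 2 Cdh15 UMIs among 5270, and no Pax7 or Myog UMI. All 5 myofibre-like cells of un-wounded library 1 stood at 1286 or more sarcomere UMIs per 10,000, with depths of 1453 to 3335 UMIs. In un-wounded library 2, 3 of the 5 stood at 1316 or more, while 1 stood at 111 with 115 Lyz2 UMIs, a macrophage gene, and 1 at 188 with 284 Col1a1 UMIs, a fibroblast collagen gene. Fibroblast markers therefore summed to 627 and 43401 CPM in the myofibre-like cells of the un-wounded libraries, against 4787, 4190.4 and 2380.3 CPM in those of the wounded libraries, and keratinocyte markers to 5405 and 988 CPM in un-wounded against 2280.5, 263 and 162 CPM in wounded. Progenitor cells could not be compared between wounded and un-wounded skin, with 0 and 1 cells in the un-wounded libraries.

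Within myofibre-like cells, no contractile gene of the fast list was called between wounded and un-wounded skin by edgeR or DESeq2. Mustn1 and Sln were not called by edgeR either, but by DESeq2. Both stood above the un-wounded values in every wounded library, and how many of all tested genes did so is not given here. Acta1 stood at 60910.5, 51694 and 74440.3 CPM in wounded and 84606 and 23965 CPM in un-wounded cells, Mylpf at 28027, 26769 and 24509 CPM in wounded and 32432 and 15771 CPM in un-wounded cells, and Pvalb at 8068, 10197 and 5579.7 CPM in wounded and 12769 and 11612 CPM in un-wounded cells. Their ranges overlapped for Acta1 and Mylpf, and for Pvalb all un-wounded values lay above the wounded ones. In un-wounded library 2, however, the cells at 111 and 188 sarcomere UMIs per 10,000 held 7229 and 9437 of the 24285 UMIs. Among cells with at least 500, un-wounded Acta1 stood at 84606 and 60638 CPM and Mylpf at 32432 and 42132 CPM. Pvalb there stood at 9628, 13913 and 6530 CPM in wounded and 12769 and 32419 CPM in un-wounded libraries. Each of these genes overlapped in that set. In edgeR's quasi-likelihood test on the summed counts with Benjamini-Hochberg adjustment, the log2 change was 0.55 for Acta1, 0.46 for Mylpf, 0.22 for Ckm, -0.01 for Tnnc2 and -0.31 for Pvalb, with adjusted p-values between 0.795 and 0.998 in edgeR. Over all genes the test called 0 of 2329 (0%), with 171 at an unadjusted p under 0.05, and DESeq2 called 6 (0.258%), all higher in wounded cells. In simulated data of this size the edgeR test recovered 2% of 4-fold changes, so a count of 0 says little.

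Mustn1 was the clearest of these genes. It stood at 1604, 2287 and 3733 CPM in wounded and 78.3 and 41.2 CPM in un-wounded myofibre-like cells, the second on 1 UMI in each un-wounded library. The groups did not overlap. Its fitted log2 change, which depends on the prior count, was 5.83 (SE 0.77), with an adjusted p of 0.272 in edgeR and 0.00148 in DESeq2. The ratio of pooled UMI shares was 46.8 (95% counting interval 12.9 to 387). Such intervals pool UMIs over cells and libraries, leave out the spread between them, and are no test between the groups. They also excluded a ratio of 1 for Acta1 (1.44, 1.37 to 1.51) and Mylpf (1.23, 1.15 to 1.32), whose library values overlapped. The same held for Pvalb (0.623, 0.566 to 0.686), but not for Ckm (1.06, 0.965 to 1.18). Mustn1 UMIs were found in 239 of 250 wounded myofibre-like cells, so the level did not rest on a few of them. Among cells with at least 500 sarcomere UMIs per 10,000, Mustn1 stood at 1900.4, 2978 and 4282 CPM in wounded and 78.3 and 0 CPM in un-wounded libraries.

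Sln (chr9:53850164-53854560, plus strand) stood at 2787, 1072 and 2768 CPM in wounded and 470 and 41.2 CPM in un-wounded myofibre-like cells, without overlap. Its log2 change was 3.66 (SE 0.89), with an adjusted p of 0.649 in edgeR and 0.0310 in DESeq2, and the ratio of pooled shares was 13.2 (95% counting interval 6.40 to 32.9). Sln UMIs were found in 180 of 250 wounded myofibre-like cells. Csrp3 stood at 2039, 559 and 3059.5 CPM in wounded and 627 and 41.2 CPM in un-wounded cells, which overlapped, with a pooled ratio of 8.97 (95% counting interval 4.72 to 19.6). H19 stood at 1899.8, 938 and 1859 CPM in wounded and 1645 and 494 CPM in un-wounded cells and overlapped as well.

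The other genes that DESeq2 called, Cxcl2, Ccl3, Ccl4 and S100a8, encode chemokines and a calcium-binding protein that leukocytes make. All had 0 UMIs among the 37050 UMIs of un-wounded myofibre-like cells. With a floor of 3 UMIs over the un-wounded group, the wounded level was at least 25.6-fold higher for Cxcl2, 12.4-fold for Ccl4, 11.8-fold for S100a8 and 7.60-fold for Ccl3. Cxcl2 UMIs were found in 133 of 250 wounded myofibre-like cells and Ccl4 UMIs in 69. The 10 highest cells held 80.5% of Cxcl2 and 92.1% of Ccl4 UMIs, against 27.9% of Mustn1 UMIs. Outside the lineage, Cxcl2 UMIs were found in 11283 of 15750 wounded and 279 of 10627 un-wounded cells. The 5 neutrophil markers, S100a8 among them, moved with the chemokines. They summed to 1859, 2698 and 337 CPM in wounded and 0 and 0 CPM in un-wounded myofibre-like cells. The 7 macrophage markers summed to 875, 259 and 949 CPM in wounded and 0 and 5147 CPM in un-wounded myofibre-like cells. What part leukocyte RNA had in these 4 genes was not tested.

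**Figure D5:**
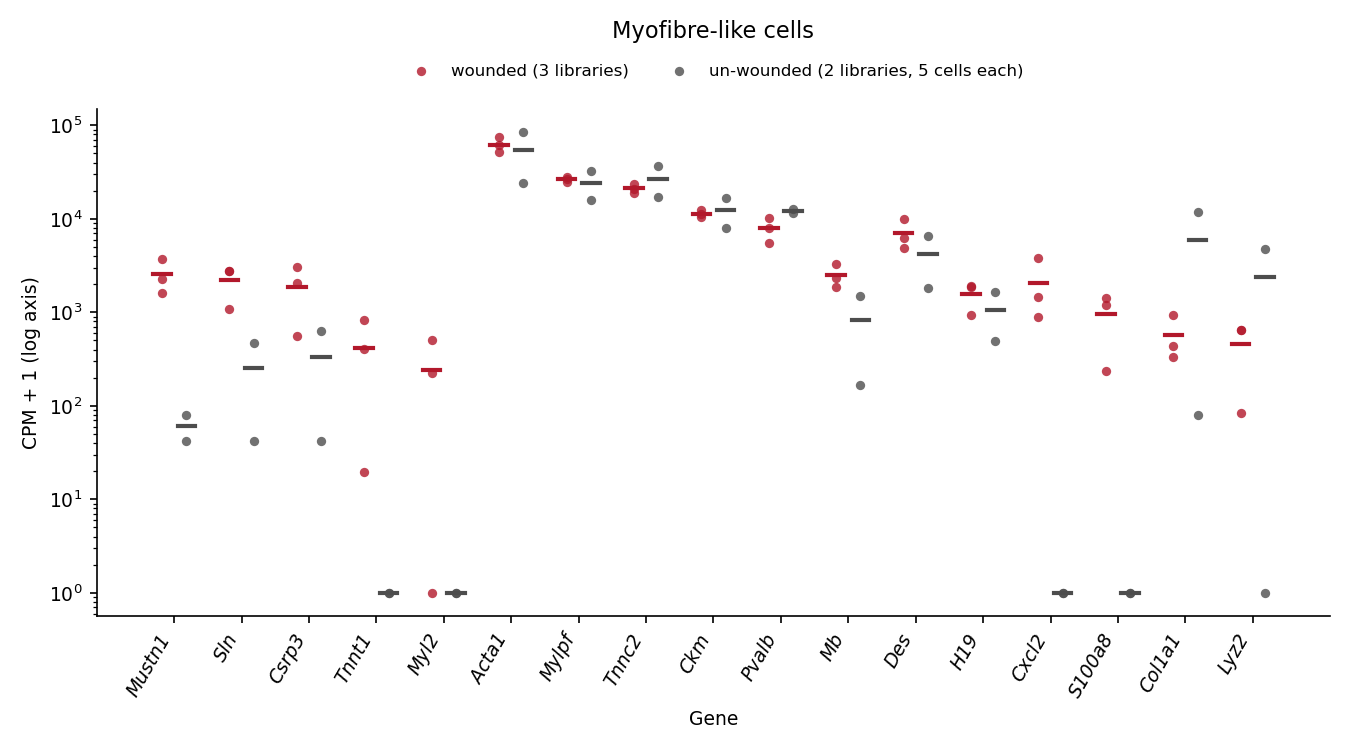
Level of 17 genes (CPM + 1, logarithmic axis) in myofibre-like cells of the 3 wounded libraries and, to their right, the 2 un-wounded libraries (5 cells each), 1 point per library and a bar at the mean. Mustn1 and Sln are higher in every wounded library, and Acta1 and Mylpf overlap between the groups. Pvalb is higher in both un-wounded libraries, and the slow genes Tnnt1 and Myl2 have no un-wounded UMI. Col1a1 and Lyz2 are high in a single un-wounded library.

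In whole libraries, edgeR called 7 of 21 fast-twitch, 4 of 17 energy metabolism and 2 of 15 calcium handling genes higher in wounded skin. The fitted log2 change was positive in 21, 16 and 14 genes of these lists. In sums over whole libraries, more cells of a type and more RNA per cell cannot be told apart. Summed over all kept cells, edgeR called 74 of 15582 genes (0.475%) at an adjusted p under 0.05, 71 higher (0.456%) and 3 lower in wounded skin. Of 126 tested genes in the 9 muscle lists together, 14 were called, all higher, among them the fast sarcomere genes Mylpf, Tnnt3, Tnni2, Tnnc2, Myl1, Mybpc2 and Actn3, the calcium genes Atp2a1 and Pvalb, and the energy genes Ckm, Eno3, Pgam2 and Cox8b. The median log2 change of the 126 was 3.01, also with the 3 genes that had no un-wounded UMI at their lower bound, against -0.04 over all genes tested. Every wounded library lay above both un-wounded libraries for 102 of the 126, and for 23.2% of all genes tested. All 21 fast-twitch, 8 slow-twitch and 6 embryonic sarcomere genes did so. The calls changed with the set of libraries and with the members taken out. Without wounded library 3 or un-wounded library 1, 0 of the muscle genes were called, and without un-wounded library 2, 1. Without wounded library 1, 66 were called among 2105 of 15289 genes in all (13.8%), and without wounded library 2, 22 among 78 of 15330 (0.509%). With the members taken out of every library, 0 of 112 muscle genes tested were called and 8 of 15505 genes in all (0.0516%). The median log2 change of these 112 was 1.67. Calls over all genes fell as well, from 74, so the part of the members in the muscle calls was not tested. DESeq2 called 93 of the 126 muscle genes and 2748 of 15582 genes in all (17.6%).

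Mylpf shows the pattern of the called genes. It stood at 311, 194 and 316 CPM in whole wounded and 21.6 and 14.5 CPM in whole un-wounded libraries, without overlap, with a log2 change of 3.93 (SE 0.42, edgeR adjusted p = 0.0467). Ckm stood at 142, 76.2 and 142 CPM in wounded and 10.2 and 5.98 CPM in un-wounded libraries, and Atp2a1 at 19.7, 18.8 and 31.9 CPM in wounded and 1.71 and 0.862 CPM in un-wounded libraries.

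The 6 regulator genes of the rule missed the threshold in whole libraries. Myog stood at 25.7, 5.21 and 19.8 CPM in wounded and 0.120 and 0.0246 CPM in un-wounded libraries, with an edgeR adjusted p of 0.0517. Pax7 stood at 0.825, 0.576 and 3.54 CPM in wounded and 0 and 0 CPM in un-wounded libraries, with an adjusted p of 0.0876 in edgeR. Cdh15 had 1039 UMIs in wounded and 3 in un-wounded libraries (edgeR adjusted p = 0.0545), Myod1 444 and 4 (adjusted p = 0.0702), Myf5 445 and 1 (adjusted p = 0.0622) and Chrna1 1032 and 54 (adjusted p = 0.106). For each of these 6 genes all wounded values lay above the un-wounded ones. Acta1, at 685, 369.7 and 943 CPM in wounded and 46.0 and 16.5 CPM in un-wounded libraries, had an edgeR adjusted p of 0.0598.

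H19 was called as well, at 131, 62.0 and 116 CPM in wounded and 1.11 and 0.542 CPM in un-wounded libraries, a log2 change of 6.97 (SE 0.62, edgeR adjusted p = 0.0412). Unlike the sarcomere genes, most of its UMIs lay outside the lineage, where it stood at 107, 55.4 and 79.1 CPM in wounded and 0.479 and 0.246 CPM in un-wounded libraries. Also called, and mostly from cells outside the lineage, were the matrix gene Tnc of the adhesion list (members held 1.10% of its wounded UMIs), the interferon genes Ifi27l2a (0.572%), Isg15 (1.20%) and Irf7 (1.26%), and the neutrophil genes S100a8 (3.57%) and S100a9 (2.20%).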

How the data were processed

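UMI counts per gene and cell were deposited for 5 droplet libraries (27998 genes each) and were made with Cell Ranger 1.3.1 on mm10, per the submitters' processing notes; the cell barcode filter and annotation are not given in the sources used here. The counts are not normalized, and no column was left unused. Cells were filtered and classed as described, and counts were summed per library and class and given as CPM. Members and gene lists were chosen with earlier results of these data known. Tests used edgeR 4.0.16 in R 4.3.3 (filterByExpr, TMM, quasi-likelihood, Benjamini-Hochberg adjustment, called under 0.05) on library sums, with wounded over un-wounded, and DESeq2 1.42.0 as an alternative. In a simulation of whole libraries (15582 genes), 0% of 4-fold changes were recovered. Shares were compared by two-sided exact permutation and carry exact Clopper-Pearson intervals. Named genes were the 10 rule genes, the 4 highest of each list in its class (summed or given as ranges for other cell types), list members called, and the 12 largest ratios per ranking; other genes were chosen after their values were seen, and a gene that the rule names is not reported here. Doublets were scored with Scrublet (scanpy 1.11.5) at 0.8% per 1000 barcodes and removed in an alternative only. Gene positions came from GENCODE vM21 (GRCm38) by gene ID, matching 27645 of 27998, and promoters from RefSeq. Each UMI counts 1 captured transcript end, so CPM is not per length and genes were not ordered against each other by level.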

Additional observations from a re-analysis of the deposited data

How the results depend on the processing

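Leaving out doublet-scored cells or moving the mitochondrial, gene, keratin, regulator or sarcomere limits left all 3 shares higher in wounded skin, in a design that cannot give p under 0.1. So did thinning to 2000 UMIs, which lowered the progenitor difference to 0.791 from 1.42 percentage points. In whole libraries 74 genes were called, against 2748 with DESeq2, 146 without TMM scaling, 767 without a filter on low counts, 8 without the members, 94 without doublet-scored cells and 78 with a 5% mitochondrial limit. Leaving out 1 library gave 0 to 2105 (wounded 1 2105, wounded 2 78, wounded 3 0, un-wounded 1 0, un-wounded 2 54). In myofibre-like cells 0 were called, against 6 with DESeq2, 48 without the filter, and 0 on leaving out each library. A replicate block, for numbers the labels do not say are shared, gave 0 in whole libraries and 15 in myofibre-like cells; same-numbered libraries correlated at 0.49 and 0.48, from 2 pairs. Proliferating progenitor cells were 48.6% without thinning and 11.7% with 3 genes, against 20.6%. With a pseudocount of 50 CPM, 41 genes were 4-fold higher and 112 lower in progenitor cells, against 263 and 290. Where counts moved, the cause was not tested. Alternative values were taken for a chosen set of 23 genes in whole libraries and 9 in myofibre-like cells. All 274 and 90 of these values were positive, and 80 lost and 44 gained a call. Pvalb and Tnnc2, with negative changes in myofibre-like cells, were not among the 9, so the shared sign depends on the choice of genes. The shares and the values of the chosen genes kept their direction in every setting. A count of called genes has no direction to reverse, and in whole libraries it fell from 74 to 0 in some settings. The test within progenitor cells was not run, since un-wounded libraries held 0 and 1. Depth limits the un-wounded myofibre-like values, which rest on 37050 UMIs.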
